A study of Mus musculus with 68 samples.

Results

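The 9 genes of meiosis and the germ line, Sycp2, Sycp3, Rec8, Stag3, Mei1, Rnf17, Tdrd1, Tdrd9 and Prss50, were followed through the prefrontal cortex of young mice with and without a mutant copy of Adnp. They are 9 of the 18088 genes in the deposited table, found by symbol, and were chosen by their expression in these libraries, because several of them stood higher in the mutant (HT) mice over all 68 columns. Their HT minus WT differences are therefore given as description and carry no test, whereas the drug, sex and interaction comparisons were not used in that choice and were tested. All 9 had a mean normalized count of at least 5 and entered the fit.

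The 68 libraries hold RNA of C57BL/6J mice taken on postnatal day 25. Fluoxetine, lithium or vehicle had reached the pups through the milk of the mother from day 3 to day 24, about 3 weeks. There were 10 HT and 10 WT libraries under fluoxetine, 9 HT and 8 WT under lithium and 16 HT and 15 WT under vehicle, with males and females in every arm. HT animals are heterozygous for Adnp, which encodes a chromatin protein altered in an autism syndrome. The labels do not describe the mutant allele, name no litters and do not say whether each library comes from an animal of its own, so p-values measure the spread between these libraries, which may in part be technical. Fluoxetine blocks serotonin reuptake, and lithium is a mood stabilizer.

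Meiosis pairs homologous chromosomes along the synaptonemal complex, holds sister chromatids with cohesin rings that carry meiosis-specific subunits, and repairs programmed DNA breaks by recombination. In the same cells, tudor domain proteins gather in germ granules and work with Piwi proteins and their small RNAs (piRNAs) to silence transposons. In somatic tissues many of these genes are kept off by DNA methylation of CG-rich promoters and by repressors that bind E-box and E2F sites, among them E2f6, Mga and Max.

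The start regions of the genes carry unequal amounts of these letters. RefSeq windows on GRCm38.p6, from 250 bases before to 50 bases after the start, were matched for 8 of the 9 genes, and Rnf17 was not matched. Over all 32851 windows the median number of CG pairs was 7, and the 8 genes held 10 (Sycp2), 15 (Sycp3), 18 (Rec8), 30 (Stag3), 8 (Mei1), 20 (Tdrd1), 10 (Tdrd9) and 21 (Prss50). The E-box CACGTG, which reads alike on both strands, stood in 7.15% of all windows. It occurred in the windows of Sycp3 (2 matches), Stag3 (1), Tdrd1 (1) and Tdrd9 (2). The E2F motif TTCCCGC, searched on both strands, stood in 4.60% of all windows and had 1 match each in Sycp3 and Stag3. Neither motif was found in the windows of Sycp2, Rec8, Mei1 and Prss50. The RefSeq start of the Mei1 window lies 12480 bases from the GENCODE start of the gene. Its counts therefore do not describe the GENCODE start. For Rec8 and Stag3 the distance was 129 and 269 bases. The windows whose RefSeq start lies within 27 bases of the GENCODE start are shown, since here both annotations place the start at nearly the same position: 280 bases each, 250 before and 30 after the start, 5′ to 3′ on the strand of the gene, with capitals for the E-box and the E2F motif.
Sycp2 (chr2:178407629-178407908, minus strand): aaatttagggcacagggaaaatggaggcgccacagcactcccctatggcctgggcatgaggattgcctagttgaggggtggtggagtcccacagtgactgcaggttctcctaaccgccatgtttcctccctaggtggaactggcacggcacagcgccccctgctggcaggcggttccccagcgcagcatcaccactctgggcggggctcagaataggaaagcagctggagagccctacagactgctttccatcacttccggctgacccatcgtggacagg
Sycp3 (chr10:88459337-88459616, plus strand): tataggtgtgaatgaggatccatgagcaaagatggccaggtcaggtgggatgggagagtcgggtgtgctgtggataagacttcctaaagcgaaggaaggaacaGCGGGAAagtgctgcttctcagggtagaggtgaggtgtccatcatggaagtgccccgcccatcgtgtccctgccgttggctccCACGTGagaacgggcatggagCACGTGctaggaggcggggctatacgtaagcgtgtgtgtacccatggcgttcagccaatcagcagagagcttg
Tdrd1 (chr19:56825959-56826238, plus strand): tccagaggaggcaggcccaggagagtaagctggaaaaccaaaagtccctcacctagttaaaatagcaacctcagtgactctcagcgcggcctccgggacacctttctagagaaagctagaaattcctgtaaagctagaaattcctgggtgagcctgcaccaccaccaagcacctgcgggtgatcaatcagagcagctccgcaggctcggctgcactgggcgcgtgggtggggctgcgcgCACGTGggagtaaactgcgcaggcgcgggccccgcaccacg
Tdrd9 (chr12:111971309-111971588, plus strand): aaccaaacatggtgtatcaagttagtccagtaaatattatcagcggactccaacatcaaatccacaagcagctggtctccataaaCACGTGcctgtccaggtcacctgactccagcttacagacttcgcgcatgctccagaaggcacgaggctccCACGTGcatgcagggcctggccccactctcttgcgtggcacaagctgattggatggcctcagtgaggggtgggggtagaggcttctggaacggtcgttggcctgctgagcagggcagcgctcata
Prss50 (chr9:110857717-110857996, plus strand): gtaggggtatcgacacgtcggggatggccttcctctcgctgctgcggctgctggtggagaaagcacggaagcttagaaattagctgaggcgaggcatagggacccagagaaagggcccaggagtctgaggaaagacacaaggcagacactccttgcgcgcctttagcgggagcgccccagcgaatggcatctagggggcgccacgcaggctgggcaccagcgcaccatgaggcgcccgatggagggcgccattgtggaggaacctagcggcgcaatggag
Sycp2, Rec8, Mei1 and Prss50, with neither motif in their windows, had higher mean levels in HT libraries of each arm. So did Sycp3, with both motifs, and Tdrd1 and Tdrd9, with the E-box only. Stag3, also with both motifs and with the most CG pairs, had lower ones. The genes were chosen because several rise in HT, and Stag3 alone lay lower. Whether motifs go with direction was therefore not tested, and nothing is read from it.

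Libraries held 22.4M to 37.5M recovered reads (median 30.7M, M for mega), and values are read counts divided by 1 size factor per library, called normalized counts here, with 1 read worth 0.786 to 1.31. By pseudogene levels the libraries fell into 3 sets that the labels do not name: all fluoxetine libraries and 8 HT vehicle libraries (28 in set 1), all lithium libraries with 6 HT and 5 WT vehicle libraries (28 in set 2), and 2 HT and 10 WT vehicle libraries (12 in set 3). The genotype comparisons under fluoxetine and under lithium therefore lie within 1 set each, whereas under vehicle the set moves with genotype, and for the 9 genes, Adnp and the other genes named for a vehicle difference the difference within set 2 is also given. Adnp itself was not lower in libraries labelled HT. Its lowest, median and highest normalized counts were 1730.2, 2334 and 2845 in HT and 1077, 1978 and 2290.2 in WT vehicle libraries (log2 difference 0.32, SE 0.07, limma adjusted p = 0.0021), and within set 2 the difference was 0.19 (SE 0.10, adjusted p = 0.88). Under fluoxetine, within set 1, it was 0.32 (SE 0.09, limma adjusted p = 0.039), a call kept in 9 of 20 refits without 1 library. Under lithium, within set 2, the Adnp difference was 0.25 (SE 0.10, limma adjusted p = 0.19). Because the labels do not describe the allele, whether these reads come from an intact copy was not tested.

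Per kilobase of exon, the 9 genes were low in cortex next to Adnp, with 369 normalized counts per kb as the mean over all libraries. Rec8 had 66.8, Mei1 14.9, Sycp3 9.64, Stag3 8.99, Prss50 8.94, Rnf17 7.62, Tdrd1 7.36, Sycp2 6.94 and Tdrd9 3.64 normalized counts per kb. The defining germ cell genes Ddx4 and Dazl, RNA-binding proteins of germ cells, were also present in the table, low next to Adnp. Under vehicle Ddx4 averaged 24.4 normalized counts per kb in HT and 25.7 in WT libraries, and Dazl 21.9 and 22.9. Of the 9 genes only Rec8 averaged more per kb in that arm. Of 11 male germ cell markers, 3 were in the table (Ddx4, Dazl and Piwil1), and the others were not analysed here. Their summed normalized count ranged from 118 to 266 (median 163) in HT and from 140.2 to 203 (median 168) in WT vehicle libraries, and 0 of the 3 passed the test in any of the 3 genotype comparisons in limma or edgeR, with 1 unadjusted p under 0.05 under fluoxetine and 0 under lithium and vehicle.

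Sycp2 and Sycp3 build the axial and lateral elements of the synaptonemal complex. Sycp2 lies at chr2:178345293-178407685 (minus strand, GRCm38), on the chromosome of Adnp and 10.1 Mb from its end. Under fluoxetine the lowest, median and highest Sycp2 normalized counts were 34.9, 51.7 and 74.2 in HT and 20.5, 24.2 and 30.3 in WT libraries. Under lithium they were 40.6, 57.7 and 71.5 in HT and 11.1, 19.3 and 23.0 in WT libraries. Under vehicle they were 38.9, 56.5 and 133 in HT and 17.7, 24.2 and 35.1 in WT libraries. In each arm every HT library lay above every WT library. The log2 difference was 1.03 (SE 0.15) under fluoxetine, 1.61 (SE 0.16) under lithium and 1.29 (SE 0.12) under vehicle, with 1.71 (SE 0.20) within set 2.

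Sycp3 (chr10:88459569-88473236, plus strand) was counted from few reads, at most 35 in any HT vehicle library and at most 16 in any WT vehicle library. Its normalized counts were 0, 15.2 and 26.1 in HT and 2.22, 4.44 and 12.4 in WT fluoxetine libraries, and 9.75, 18.5 and 24.1 in HT and 3.40, 5.82 and 9.43 in WT lithium libraries. Under vehicle they were 7.80, 16.3 and 30.7 in HT and 0, 9.09 and 18.4 in WT libraries. Only under lithium were the genotypes separate: 9 of 9 HT libraries lay above all WT libraries there, against 7 of 10 under fluoxetine and 5 of 16 under vehicle. A count of 0 was seen in HT fluoxetine female replicate 3 and WT vehicle female replicate 4, where it allows up to 3 reads, or 3.08 and 3.15 normalized counts, for counting error only. HT minus WT on the log2 scale was 1.11 (SE 0.34) under fluoxetine, 1.34 (SE 0.38) under lithium and 0.94 (SE 0.28) under vehicle, with 0.59 (SE 0.48) within set 2. The gene lies inside Chpt1, an enzyme gene of phospholipid synthesis on the opposite strand with a mean normalized count of 1204. Whether the counting used strand is not given in the sources used here, so the reads of Sycp3 and Chpt1 cannot be told apart with certainty. Chpt1 had log2 differences of -0.07, -0.06 and -0.09 under fluoxetine, lithium and vehicle, none of them past the test.

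**Figure D1:**
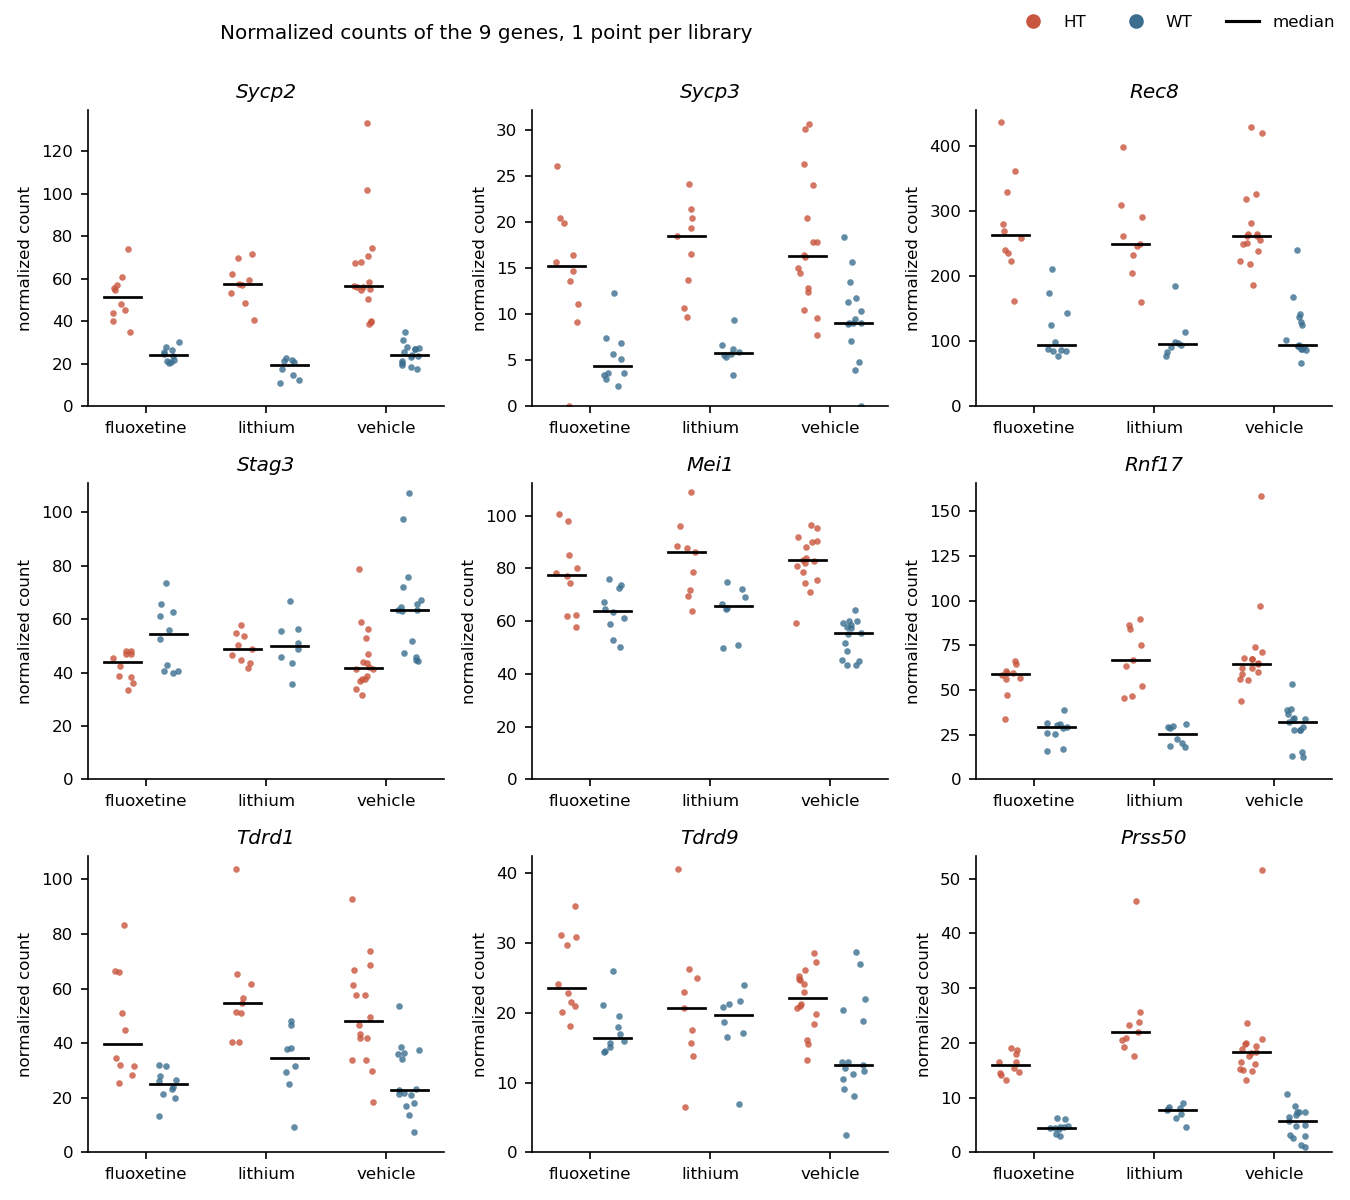
Normalized counts of the 9 genes, 1 point per library, in HT (red, left of each pair) and WT (blue) libraries under fluoxetine, lithium and vehicle, with a bar at the median. Sycp2 and Prss50 show no overlap between genotypes in any arm, Rec8 and Rnf17 overlap in a few libraries, and Stag3 is the gene with lower HT medians in each arm.

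Rec8 and Stag3 are the meiotic kleisin and the meiotic SA subunit of cohesin, the counterparts of Rad21 and of Stag1 and Stag2 in dividing and resting somatic cells. Rec8 (chr14:55618037-55625395, plus strand) had normalized counts of 161, 263 and 436 in HT and 77.4, 93.5 and 211 in WT fluoxetine libraries. Under lithium they were 160.2, 249 and 398 in HT and 77.5, 95.2 and 184 in WT libraries. Under vehicle they were 186, 261 and 428 in HT and 65.8, 93.5 and 239 in WT libraries. The HT medians lay above the highest WT library in each arm, and the ranges overlapped: 9 of 10, 8 of 9 and 12 of 16 HT libraries exceeded all WT libraries under fluoxetine, lithium and vehicle. In log2 terms the genotype difference was 1.28 (SE 0.17), 1.29 (SE 0.19) and 1.28 (SE 0.14) in the same order, and 1.52 (SE 0.24) within set 2 under vehicle. Per kilobase, Rec8 averaged 94.6 normalized counts in HT and 39.5 in WT vehicle libraries, while Rad21 averaged 651 in HT and 659.5 in WT vehicle libraries. Rad21 did not pass the genotype test in any arm. Under lithium its normalized counts did not overlap, at 2653 to 2891 in HT and 2399 to 2644 in WT libraries (log2 difference 0.10, SE 0.05, limma adjusted p = 0.26). In that arm HT libraries lay wholly above WT libraries for 0.446% of all genes tested.

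Stag3 (chr5:138280240-138312393, plus strand) was the exception to the direction shared by the other 8 genes. It had normalized counts of 33.7, 43.9 and 48.3 in HT and 39.7, 54.3 and 73.7 in WT fluoxetine libraries, and 41.8, 48.8 and 57.7 in HT and 35.8, 50.01 and 66.9 in WT lithium libraries. Under vehicle it had 31.8, 41.7 and 79.0 in HT and 44.3, 63.5 and 107 in WT libraries. HT libraries lay below all WT libraries in 4 of 10 cases under fluoxetine, 0 of 9 under lithium and 11 of 16 under vehicle. The log2 difference was -0.30 (SE 0.14) under fluoxetine, -0.01 (SE 0.15) under lithium and -0.50 (SE 0.11) under vehicle, with -0.31 (SE 0.17) within set 2. Stag1 and Stag2 did not pass the genotype test in any arm.

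Mei1, which is needed in mice to form the DNA breaks that start recombination, lies at chr15:82069996-82126814 (plus strand). It had normalized counts of 57.6, 77.6 and 101 in HT and 50.2, 63.9 and 76.1 in WT fluoxetine libraries, and 63.9, 86.3 and 109 in HT and 49.8, 65.8 and 75.0 in WT lithium libraries. Under vehicle it had 59.5, 83.1 and 96.4 in HT and 43.3, 55.6 and 64.4 in WT libraries. The genotypes were best separated under vehicle, with 15 of 16 HT libraries above all WT libraries, against 6 of 10 under fluoxetine and 6 of 9 under lithium. HT minus WT on the log2 scale was 0.26 (SE 0.10) under fluoxetine, 0.38 (SE 0.11) under lithium and 0.61 (SE 0.08) under vehicle, with 0.64 (SE 0.14) within set 2.

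Rnf17, Tdrd1 and Tdrd9 encode tudor domain proteins of the germ granule. Rnf17, also a RING finger protein and needed for sperm formation in mice, lies at chr14:56402581-56525032 (plus strand). Its normalized counts were 33.7, 58.9 and 66.2 in HT and 15.9, 29.1 and 39.0 in WT fluoxetine libraries, and 45.4, 67.1 and 89.9 in HT and 17.9, 25.7 and 31.2 in WT lithium libraries. Under vehicle they were 43.8, 64.8 and 159 in HT and 12.6, 32.2 and 53.1 in WT libraries. All 9 HT lithium libraries exceeded all WT libraries, as did 9 of 10 under fluoxetine and 15 of 16 under vehicle. In log2 terms the genotype difference was 1.03 (SE 0.19) under fluoxetine, 1.40 (SE 0.21) under lithium and 1.23 (SE 0.15) under vehicle, with 1.40 (SE 0.26) within set 2.

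Tdrd1 (chr19:56826209-56870012, plus strand) is a scaffold that binds Piwi proteins. It had normalized counts of 25.4, 39.6 and 83.3 in HT and 13.2, 25.2 and 32.1 in WT fluoxetine libraries, and 40.5, 54.7 and 104 in HT and 9.36, 34.7 and 48.1 in WT lithium libraries. Under vehicle it had 18.4, 48.1 and 92.8 in HT and 7.59, 22.8 and 53.7 in WT libraries. Ranges overlapped in all 3 arms, with 6 of 10, 7 of 9 and 7 of 16 HT libraries above all WT libraries under fluoxetine, lithium and vehicle. The log2 difference was 0.81 (SE 0.22) under fluoxetine, 0.75 (SE 0.24) under lithium and 0.93 (SE 0.18) under vehicle, with 0.82 (SE 0.28) within set 2.

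Tdrd9 (chr12:111971559-112068854, plus strand), an RNA helicase of transposon silencing, had the lowest level per kilobase. It had normalized counts of 18.1, 23.5 and 35.4 in HT and 14.5, 16.4 and 26.0 in WT fluoxetine libraries, and 6.50, 20.7 and 40.6 in HT and 6.93, 19.8 and 24.1 in WT lithium libraries. Under vehicle it had 13.2, 22.1 and 28.6 in HT and 2.53, 12.5 and 28.7 in WT libraries. The genotypes overlapped in every arm, and under vehicle 0 of 16 HT libraries exceeded all WT libraries. HT minus WT on the log2 scale was 0.49 (SE 0.23) under fluoxetine, 0.19 (SE 0.26) under lithium and 0.68 (SE 0.19) under vehicle, with 0.75 (SE 0.32) within set 2. Rd3l, a gene on the opposite strand that overlaps it, had a mean normalized count of 14.1 and did not pass the genotype test in any arm.

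Prss50, a serine protease-like protein of the testis, lies at chr9:110857967-110864629 (plus strand) and had the largest log2 difference of the 9 under fluoxetine and, over all libraries, under vehicle, but not within set 2, where those of Sycp2 and Rec8 were larger. Its normalized counts were 13.2, 15.9 and 19.05 in HT and 2.99, 4.54 and 6.34 in WT fluoxetine libraries, and 17.6, 22.1 and 45.9 in HT and 4.62, 7.79 and 8.96 in WT lithium libraries. Under vehicle they were 13.2, 18.2 and 51.6 in HT and 1.01, 5.75 and 10.7 in WT libraries. No WT library reached the lowest HT library of its arm. WT vehicle libraries held 1 to 12 reads of the gene and HT vehicle libraries 13 to 45. In log2 terms the genotype difference was 1.61 (SE 0.22) under fluoxetine, 1.51 (SE 0.24) under lithium and 1.79 (SE 0.17) under vehicle, with 1.51 (SE 0.26) within set 2. At levels this low, adding 1 before taking the log2 makes the difference smaller than the ratio of the counts.

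Set side by side, the genes without overlap between genotypes numbered 2 of 9 under fluoxetine (Sycp2 and Prss50), 4 of 9 under lithium (Sycp2, Sycp3, Rnf17 and Prss50) and 2 of 9 under vehicle (Sycp2 and Prss50). Among all 17922 genes tested, HT libraries lay wholly above WT libraries for 0.279% under fluoxetine, 0.446% under lithium and 0.128% under vehicle. The same genotype difference chose the 9 genes, so nothing is read from this contrast of shares. The median log2 difference of the 9 was 1.03, 1.29 and 0.94 under fluoxetine, lithium and vehicle, and that of all genes tested was -0.0018, 0.0019 and -0.0055. Split by drug and sex, the HT mean was higher in 6 of 6 strata for each gene other than Stag3, for which it was higher in 1 and lower in 5. The comparison plot of the 9 differences places Prss50, Sycp2, Rec8, Rnf17 and Sycp3 at 0.94 or above in each arm over all libraries and Mei1, Tdrd9 and Stag3 closer to 0. Within set 2 Sycp3 lies lower, at 0.59.

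**Figure D2:**
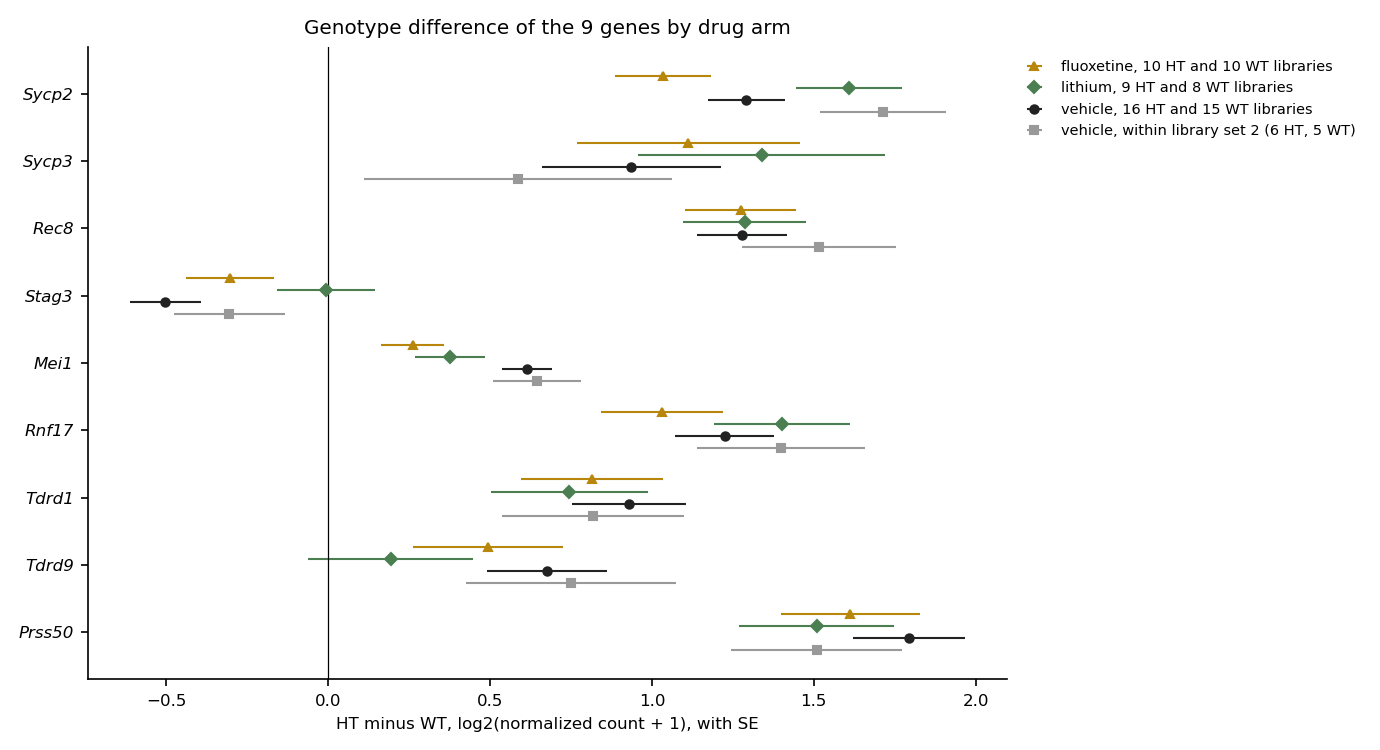
HT minus WT difference of log2(normalized count + 1) for each of the 9 genes, with SE, under fluoxetine, lithium and vehicle, and under vehicle within library set 2. Rec8 lies at 1.28, 1.29 and 1.28 in the 3 arms, and Stag3 at -0.30, -0.01 and -0.50.

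Whether a drug changed these genes was tested in each genotype with limma across all 17922 genes. Fluoxetine called 0 of the 9 in HT, where 0.407% of all genes were called higher and 0.809% lower. The estimates lay between -0.47 (Sycp3, SE 0.31) and 0.21 (Tdrd9, SE 0.21), 0 of the 9 had an unadjusted p under 0.05, and edgeR on recovered reads called 0. Within set 1, where 6 of all genes were called higher and 24 lower, 0 of the 9 passed in HT and 0 had an unadjusted p under 0.05. Those estimates lay between -0.37 (Sycp3, SE 0.38) and 0.26 (Tdrd9, SE 0.26). In WT fluoxetine also called 0 of the 9, against 3.14% higher and 2.29% lower of all genes, and edgeR called 0. There 3 had an unadjusted p under 0.05: Sycp3 (log2 -0.65, SE 0.31), Stag3 (-0.26, SE 0.12) and Mei1 (0.25, SE 0.09). No library set holds both sides of that comparison, so drug and set cannot be told apart in it.

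Lithium called 0 of the 9 in HT, where 1.03% of all genes were called higher and 0.491% lower, 0 had an unadjusted p under 0.05, and edgeR called 0. The HT estimates lay between -0.14 (Tdrd9, SE 0.22) and 0.28 (Prss50, SE 0.20). Within set 2, where 22 of all genes were called higher and 7 lower, 0 of the 9 passed in HT and 0 had an unadjusted p under 0.05. Those estimates lay between -0.28 (Sycp2, SE 0.17) and 0.29 (Stag3, SE 0.15), with -0.01 for Prss50 (SE 0.23). In WT, where lithium called 18.6% of all genes higher and 17.5% lower, 4 of the 9 passed in the pooled comparison, 2 higher and 2 lower, shares close to those of all genes. Sycp2 fell by 0.41 on the log2 scale (SE 0.15, adjusted p = 0.025) and Stag3 fell by 0.35 (SE 0.14, adjusted p = 0.037). Mei1 rose by 0.25 (SE 0.10, adjusted p = 0.035) and Prss50 rose by 0.56 (SE 0.22, adjusted p = 0.035). edgeR called 3 of the 9, without Prss50 (0.45, adjusted p = 0.13), and limma on only the groups compared called 0. These 4 comparisons set WT lithium libraries of set 2 against WT vehicle libraries of which 10 of 15 belong to set 3. Within set 2, where 0.43% of all genes were called higher and 0.234% lower, 0 of the 9 passed and 0 had an unadjusted p under 0.05. There the differences were -0.17 for Sycp2, -0.01 for Stag3, 0.23 for Mei1 and -0.01 for Prss50 (limma adjusted p = 0.79, 0.99, 0.48 and 1.0). With single libraries left out of the pooled comparison, 1 to 4 of the 9 passed.

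Whether a drug moved the HT minus WT difference was tested as an interaction. For fluoxetine minus vehicle 0 of the 9 passed in limma and 0 in edgeR, 1 had an unadjusted p under 0.05, and 0% of all genes were called in either direction. The smallest p belonged to Mei1, whose genotype difference was lower under fluoxetine by a log2 difference of -0.35 (SE 0.12, adjusted p = 0.25). For lithium minus vehicle 0 of the 9 passed in limma and 0 in edgeR, against 1.15% of all genes higher and 1.65% lower. The smallest p belonged to Stag3 (0.50, SE 0.19, adjusted p = 0.11), and it alone had an unadjusted p under 0.05. For Rec8 the interaction was -0.003 (SE 0.22) with fluoxetine and 0.01 (SE 0.23) with lithium. For Prss50 it was -0.18 (SE 0.28) and -0.29 (SE 0.29), and for Sycp2 -0.26 (SE 0.19) and 0.32 (SE 0.20). Within set 2, which holds both sides of the lithium interaction, 0 of the 9 passed and 0 had an unadjusted p under 0.05. There the lithium interaction was -0.10 for Sycp2 (SE 0.25), the opposite sign to that over all libraries, -0.23 for Rec8 (SE 0.31), 0.30 for Stag3 (SE 0.22, adjusted p = 0.74) and -1.9e-05 for Prss50 (SE 0.34). With errors of this size, a p that misses the threshold does not show that the genotype difference was the same with and without drug.

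Sex was a measure that the choice of genes did not use, and Tdrd1 was the 1 gene of the 9 that passed. Over all arms 8 genes were called higher in males (0.0446% of those tested) and 10 lower (0.0558%). Tdrd1 rose by 0.57 on the log2 scale in males over females (SE 0.12, limma adjusted p = 0.023). Its normalized count averaged 48.5 ± 21.1 in males (SD, n = 33) and 32.0 ± 14.3 in females (SD, n = 35). The male mean was higher in 6 of 6 arms. Among HT libraries it was 62.3 ± 15.1 in males and 30.4 ± 3.61 in females under fluoxetine (n = 5 each), and 59.8 ± 18.1 in males and 42.4 ± 16.3 in females under vehicle (n = 8 each). Under lithium it was 64.5 ± 24.0 in HT males (n = 5) and 50.8 ± 7.11 in HT females (n = 4).

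Among WT libraries Tdrd1 averaged 27.6 ± 4.96 in males and 21.7 ± 5.06 in females under fluoxetine (n = 5 each), 44.3 ± 5.34 in males (n = 3) and 26.7 ± 10.7 in females (n = 5) under lithium, and 31.2 ± 13.1 in males (n = 7) and 23.1 ± 10.4 in females (n = 8) under vehicle. The sexes separated fully in HT fluoxetine and WT lithium libraries and overlapped in the other 4 arms. The interaction of genotype with sex was 0.05 for Tdrd1 (SE 0.25, limma adjusted p = 0.98). In edgeR the sex difference was 0.55 (adjusted p = 0.018), and within library sets, where 0.0391% of all genes were called higher in males and 0.0558% lower, 0.63 (adjusted p = 0.029). Without WT lithium male replicate 1 or replicate 2 the adjusted p was 0.052 in each case, with differences of 0.56 and 0.56. Of the other 8 genes, Sycp2 alone had an unadjusted p under 0.05 for sex (0.18, SE 0.08, adjusted p = 0.80). For the interaction of genotype with sex 0 of the 9 passed in limma or edgeR, and 0 of the 9 had an unadjusted p under 0.05. Both methods called 0 of all 17922 genes in either direction there.

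**Figure D3:**
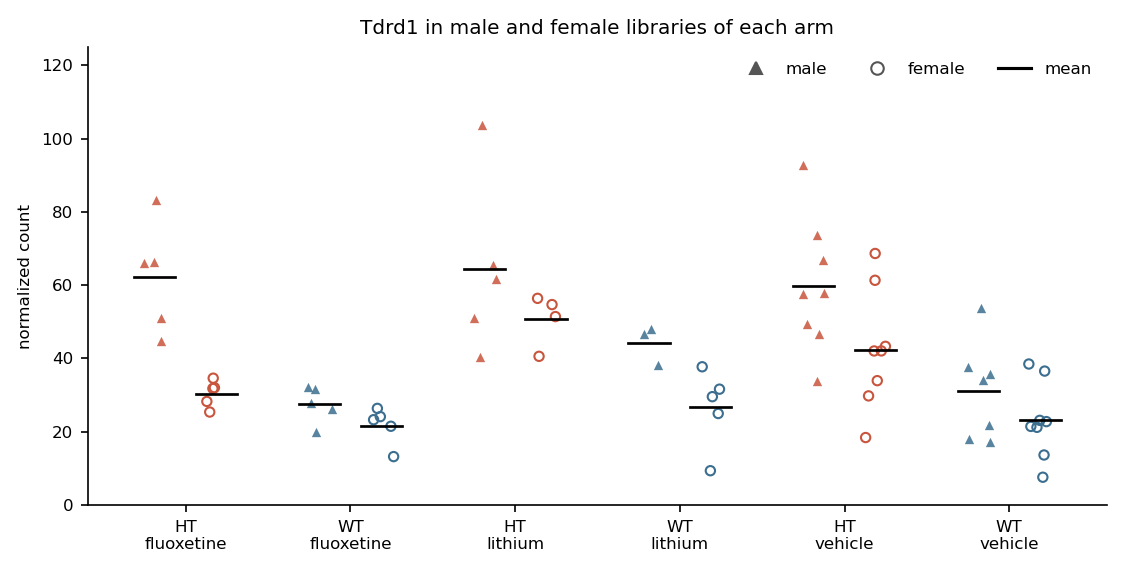
Normalized counts of Tdrd1 in male (triangles) and female (circles) libraries of each arm, HT in red and WT in blue, with a bar at the mean of each group. The male mean is higher in 6 of 6 arms, and in HT fluoxetine libraries it is 62.3 in males and 30.4 in females.

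Other germ line genes were tested for genotype too, in 5 lists of genes of the same processes, chosen with earlier results of these data known, with 54 genes tested. Under fluoxetine 0 of the 54 were higher in HT, where 1.33% of all genes were called higher, and 1 was lower, where 0.653% of all genes were called lower. In that arm edgeR called 0 higher and 1 lower, and 12 had an unadjusted p under 0.05 in either direction. Under lithium 1 was higher and 0 lower (1.48% and 1.03% of all genes), as in edgeR, with 10 under an unadjusted p of 0.05. Under vehicle 7 of the 54 were higher (13.0%) and 7 lower (13.0%), against 7.74% and 7.21% of all genes. There edgeR called 5 higher and 7 lower. Within set 2 under vehicle 0 of the 54 passed and 7 had an unadjusted p under 0.05, where 0.463% of all genes were called higher and 0.0725% lower. The median log2 difference of the 54 was 0.0031, 0.048 and -0.063 under fluoxetine, lithium and vehicle.

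By role, the synaptonemal complex and pairing list had 7 genes tested. Syce1, a central element protein, rose under vehicle (log2 0.65, SE 0.23, adjusted p = 0.046, and 0.74 within set 2), and the other 6 did not pass in any arm. Of 9 genes for meiotic cohesin and its mitotic counterparts, Pds5b, a cohesin regulator, fell by 0.11 under vehicle (SE 0.03, adjusted p = 0.022), with -0.13 within set 2. Of 17 recombination genes, 3 rose and 3 fell under vehicle. Hsf2bp, which works with Brca2 in meiotic recombination, rose by 1.04 (SE 0.23, adjusted p = 0.0014), Ccdc36 by 0.37 and Gm960 by 0.25, whereas Mnd1 fell by 0.57, Mei4 by 0.52 and Zcwpw1 by 0.19. Within set 2, where none of them passed, the differences were 0.74 for Ccdc36, 0.30 for Gm960 and -0.82 for Mei4, and those of Mnd1 (-0.21, unadjusted p = 0.46) and Zcwpw1 (-0.05, unadjusted p = 0.64) were much nearer 0 than over all libraries. Ccdc36, Gm960 and Mei4 act in break formation, and Mnd1 assists strand invasion.

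Hsf2bp was the listed gene that also rose under lithium (log2 1.37, SE 0.32, adjusted p = 0.0069). Its normalized counts were 4.65, 13.0 and 22.1 in HT and 3.91, 7.24 and 9.97 in WT fluoxetine libraries, 10.7, 16.1 and 27.4 in HT and 0.851, 6.38 and 10.8 in WT lithium libraries, and 8.02, 14.9 and 39.9 in HT and 0, 8.02 and 10.6 in WT vehicle libraries. The genotypes overlapped in each arm. Within set 2 under vehicle its difference was 0.95 (adjusted p = 0.66).

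Of 13 genes of the piRNA pathway and germ granule, 3 rose and 2 fell under vehicle. Henmt1, which methylates the ends of piRNAs, rose by 0.65 (SE 0.15, adjusted p = 0.0020), Tdrd7 by 0.13 and Ddx25 by 0.08, and Tdrd3 fell by 0.14 and Tdrkh by 0.09. Within set 2 the differences were 0.59 for Henmt1, 0.06 for Tdrd7, 0.02 for Ddx25, -0.01 for Tdrd3 and -0.08 for Tdrkh, none of them past the test. Of 8 germ cell regulators, Tcfl5, a testis transcription factor also on chromosome 2 and 12.4 Mb from Adnp, fell under fluoxetine (log2 -0.77, SE 0.17, adjusted p = 0.0043) and under vehicle (-1.02, SE 0.14, adjusted p = 1.4e-07, and -0.75 with adjusted p = 0.22 within set 2). Its normalized counts were 9.06, 15.6 and 29.7 in HT and 21.5, 27.6 and 42.3 in WT fluoxetine libraries, and 10.5, 16.8 and 21.1 in HT and 17.0, 35.0 and 67.2 in WT vehicle libraries. Under lithium they were 9.75, 15.2 and 17.3 in HT and 18.7, 22.2 and 25.9 in WT libraries, so that all 9 HT libraries lay below all 8 WT libraries, as for 0.151% of all genes tested. The lithium difference was -0.57 (SE 0.19) and missed the threshold (adjusted p = 0.098), and it passed in limma on only the groups compared (adjusted p = 0.029).

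Of 26 silencers of germ line genes, Chd4, the remodelling enzyme that partners Adnp in a chromatin complex, rose under fluoxetine (log2 0.15, SE 0.04, adjusted p = 0.022) and under vehicle (0.12, SE 0.03, adjusted p = 0.010). That is 1 of 26 higher and 0 lower in both arms, where 1.33% and 7.74% of all genes were called higher and 0.653% and 7.21% lower. The vehicle call was lost in limma on only the groups compared (adjusted p = 0.054) and within set 2 (0.12, adjusted p = 0.68). The fluoxetine call was lost without HT fluoxetine male replicate 2 (adjusted p = 0.062) or WT fluoxetine female replicate 5 (0.072). Under lithium the difference of Chd4 was as large (0.14, SE 0.04, adjusted p = 0.068), with 7 of 9 HT libraries above all WT libraries, and it passed in 4 alternatives, with adjusted p = 0.032 on only the groups compared, 0.036 within set 2, 0.049 with the replicate block and 0.0066 with marker covariates. The other 25 did not pass in any arm in limma, E2f6, Mga, Max, Dnmt1 and Setdb1 among them, and in edgeR Cbx1, a heterochromatin protein, was called lower under vehicle (adjusted p = 0.046). Under vehicle 1 silencer was called lower with the replicate block and 4 with marker covariates. Those fits called 1447 and 1945 of all 17922 genes lower, so nothing is read from these counts. Kdm5c, a histone demethylase gene on the X chromosome that represses germ line genes in mice, was lower in males than in females (log2 -0.30, SE 0.03, adjusted p = 2.1e-14), and the other 25 silencers did not pass for sex. Of the 54 germ line genes 0 passed for sex in limma or edgeR, and 7 had an unadjusted p under 0.05.

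**Figure D4:**
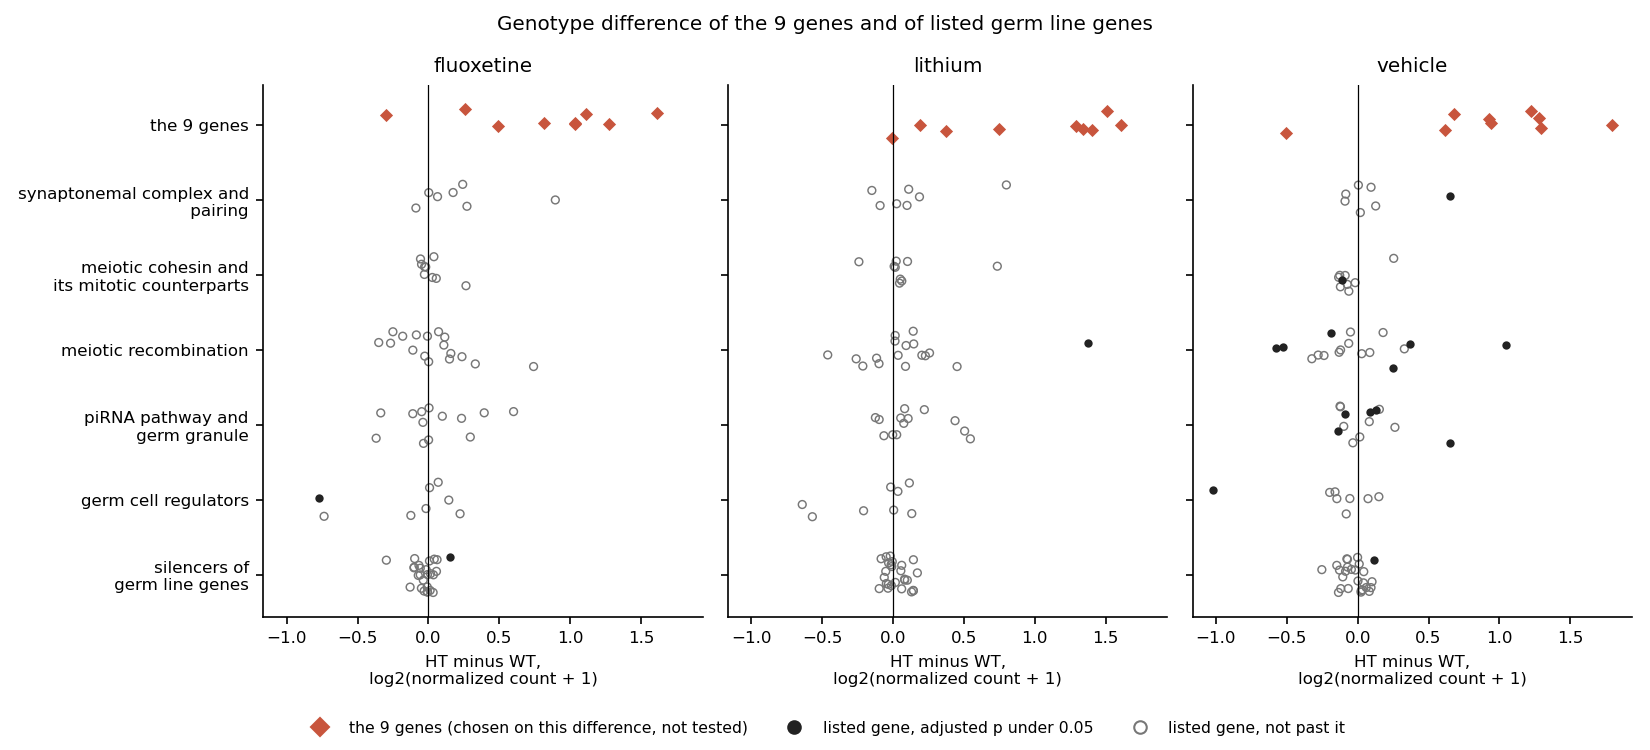
HT minus WT difference of log2(normalized count + 1) for the 9 genes (red diamonds), for 54 listed germ line genes and for 26 silencers (circles, filled where the adjusted p is under 0.05), under fluoxetine, lithium and vehicle. Filled circles number 14 for germ line genes under vehicle, 1 under fluoxetine (Tcfl5, lower in HT) and 1 under lithium (Hsf2bp at 1.37). Among silencers, Chd4 is filled under fluoxetine and vehicle. Within library set 2 under vehicle 0 of the 54 passed.

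The 9 genes were also compared pair by pair within groups. After the mean of each group of genotype, drug and sex was subtracted, Spearman's rho over 68 libraries was highest for Rec8 and Stag3 (0.52) and lowest for Stag3 and Prss50 (-0.25). These are descriptions over libraries that share depth and dissection. Low read counts, as for Sycp3, Prss50 and Tdrd9, lower such correlations, so a low rho does not show that genes vary apart. The genes most like each member by the same measure were Gm42528 (rho 0.65), Luc7l3 (0.61) and D930016D06Rik (0.60) for Sycp2, Cdca7 (0.86), Dock10 (0.83) and Slc6a9 (0.83) for Rec8, and Ptbp1 (0.63), Bace2 (0.63) and Tet1 (0.63) for Stag3. For Prss50 they were Gm37962 (0.54), Gm5432 (0.49) and Gas6 (0.48), and for Tdrd1 Pomgnt1 (0.50), Esr1 (0.48) and Mrpl10 (0.47). Rnf17 was most like Vrk1 (0.49), Tdrd9 most like Slc6a12 (0.51), Sycp3 most like Itga11 (0.44) and Mei1 most like Samd4 (0.44). All these genes were picked as the highest rho among all genes tested, and such a search raises rho even among unrelated genes. None was tested against what the search gives by chance, so no shared regulation is read from them.

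Rec8 moved with markers of neighbouring tissue. The summed normalized count of 5 olfactory bulb neuron markers ranged from 230 to 20567 (median 1583) in HT and from 199 to 19731 (median 967) in WT vehicle libraries, and 0 of the 5 passed the genotype test in any arm in limma or edgeR, or had an unadjusted p under 0.05. Over the deviations of 68 libraries from their group means, Rec8 followed the mean log2 level of these markers with Pearson's r = 0.79 and Spearman's rho = 0.77. The adjusted permutation p was 0.00021 for each over 63 relations of the 9 genes with 7 marker lists, from a raw p of 1e-05, the smallest that 100000 resamples within groups can give. Without the 2 libraries farthest from the median marker level r was 0.77, and within sets 1, 2 and 3 it was 0.79, 0.79 and 0.84. With cortical excitatory neuron markers Rec8 had r = -0.73 and rho = -0.76 (adjusted permutation p = 0.00021 for each, r = -0.70 without 2 libraries, and -0.76, -0.80 and -0.74 within sets), and with choroid plexus markers r = 0.53 and rho = 0.60 (adjusted permutation p = 0.00021 for each, r = 0.60 without 2 libraries, and 0.52, 0.54 and 0.69 within sets).

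Among the other 8 genes, Stag3 followed the olfactory bulb markers with r = 0.42 and rho = 0.43 (adjusted permutation p = 0.044 and 0.033), with r = 0.33 without 2 libraries and 0.41, 0.30 and 0.47 within sets. Tdrd9 had r = -0.40 and rho = -0.36 with the cortical excitatory markers (adjusted permutation p = 0.018 and 0.053, r = -0.42 without 2 libraries, and -0.55, -0.28 and -0.51 within sets). No other relation of the 63 had an adjusted p under 0.05 by either measure. In bulk tissue, fewer cells of a type and less RNA per cell cannot be told apart.

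The WT libraries in which Rec8 reached into the HT range were rich in these markers, but not every WT library rich in them did so. Under fluoxetine 2 of 10 WT libraries exceeded the lowest HT library, with marker sums of 18387 and 20653 against a WT median of 2467. Under lithium it was 1 of 8, with 4158 against a median of 681, and under vehicle 1 of 15, with 19731 against a median of 967. Of 7 WT libraries with a marker sum above 10000, a limit set once the values were known, 3 had Rec8 above the lowest HT library of their arm and 4 below it. Among those 4, WT vehicle female replicate 1 had a marker sum of 19522 and a Rec8 normalized count of 125.1. With the olfactory bulb and striatal marker levels as covariates, an alternative chosen once the values were known, the genotype difference of Rec8 was 1.202 (SE 0.10), 1.25 (SE 0.11) and 1.25 (SE 0.08) under fluoxetine, lithium and vehicle. That of Prss50 was 1.62, 1.42 and 1.78, and that of Sycp2 was 1.02, 1.61 and 1.29.

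**Figure D5:**
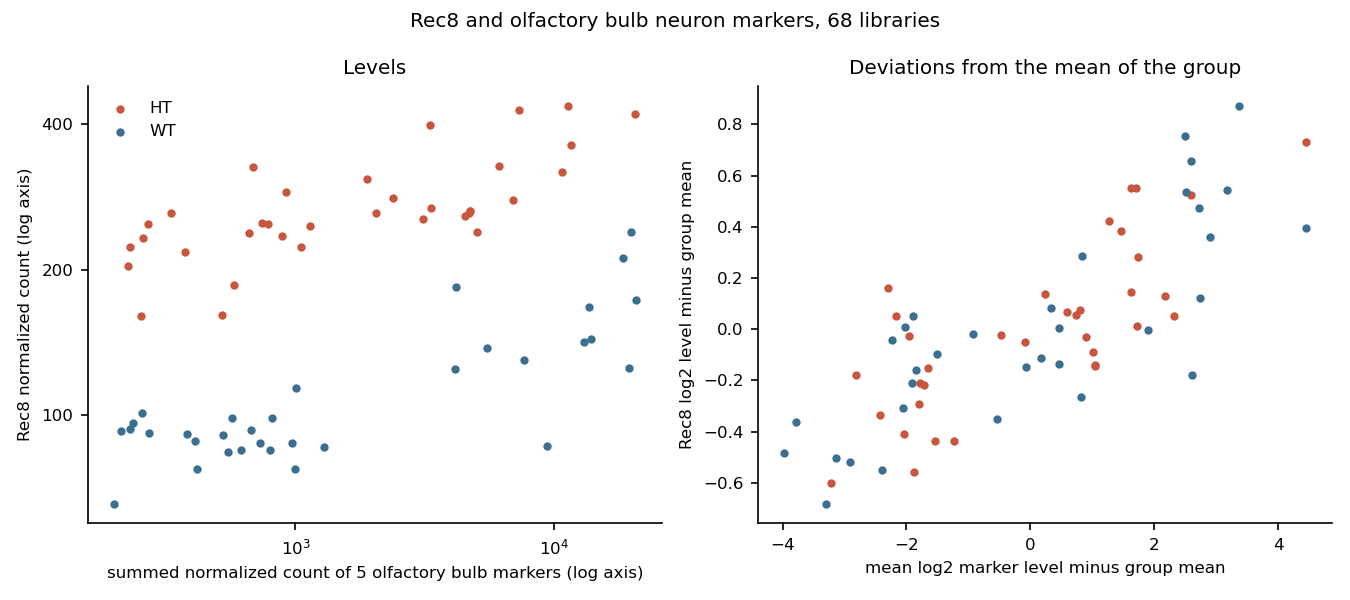
Left, normalized count of Rec8 against the summed normalized count of 5 olfactory bulb neuron markers, both on log axes, 1 point per library, HT in red and WT in blue. Right, the same libraries as deviations of Rec8 and of the mean marker level (log2) from the mean of their group, where Pearson's r is 0.79.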

How the data were processed

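Per the labels' protocols, the 68 prefrontal cortex samples were made into stranded libraries after selection of polyadenylated RNA. The authors deposited 1 table of a signal per gene and library: the deposited values are read counts divided by 1 size factor per library, and 100% came out as whole reads within 0.01. The submitters' processing notes name GRCm38, Salmon 0.11.2, R 3.6.0 and DESeq2 1.19.11 without their roles. Whether the counting used strand is not given in the sources used here. Each of the 12 groups of genotype, drug and sex came from the labels.

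Tests used limma 3.58.1 in R 4.3.3 on log2(value + 1), with trend and robust shrinkage, on the 17922 genes that averaged 5 or more (166 did not). The 12 groups shared 1 estimate of the spread, and an effect is the mean of its female and male contrasts. The Benjamini-Hochberg adjustment ran over all genes tested, and the threshold was an adjusted p of 0.05. edgeR 4.0.16 (quasi-likelihood, TMM) on the recovered reads was an alternative, beside a pseudocount of 0.5, no filter, fewer groups, a fit within library sets, a replicate block, marker covariates and each library left out. The code was tested on simulated data. Library sets were cut at 3 from a tree (average linkage, distance of 1 minus Pearson's r) of the levels of 361 pseudogenes. No 2 libraries of a group agreed within sampling noise: chi-square per gene was at least 3.92 over 174 pairs.

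The members, the gene lists and the library sets were chosen with earlier results of these data known. Genes named by rule are the 9 members, Adnp, the 3 genes most like a member (1 is printed for Rnf17, Tdrd9, Sycp3 and Mei1) and, per list, up to 4 with the smallest p past the threshold, with every called gene named where a list had more. Mitotic cohesin subunits, overlapping genes, germ cell markers and silencers that did not pass were named outside this rule, for their role or position, with their values known. Symbols and 1-based positions are from GENCODE vM21 (18077 genes matched).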

Additional observations from a re-analysis of the deposited data

Results flagged for a closer look

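Of 99 groups of 4 to 8 libraries examined for the 9 genes, 14 had a highest or lowest library set apart from the others by a gap larger than Dixon's 95% critical value. For normally distributed values chance gives this in about 1 in 20 groups. The normalized counts were not transformed, and whether they are so distributed was not tested. A pair of libraries appear more than once. HT vehicle female replicate 6 stood highest for Rec8 (427.9 normalized counts, next 326) and for Rnf17 (159, next 64.3). HT vehicle male replicate 5 stood highest for Rec8 (419.5, next 261) and for Stag3 (79.0, next 46.8). Prss50 had 1 high library among HT lithium males (replicate 5, 45.9, next 25.6) and 1 among HT vehicle males (replicate 7, 51.6, next 23.7).

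Among the remaining groups, Rnf17 was high in HT vehicle male replicate 2 (97.1, next 74.1) and low in HT fluoxetine male replicate 1 (33.7, next 56.2) and in WT vehicle female replicate 4 (12.6, next 27.6). Rec8 was high in WT fluoxetine male replicate 1 (144, next 99.0) and Stag3 in WT vehicle female replicate 5 (97.3, next 67.2). Sycp2 was high in WT fluoxetine female replicate 1 (27.8, next 21.7), Sycp3 in HT vehicle female replicate 7 (30.1, next 17.8), and Mei1 was low in WT lithium female replicate 5 (51.1, next 64.7).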

How the results depend on the processing

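The genotype differences of the 9 genes kept their sign in 791 of 801 refits, the exceptions being Stag3 and Tdrd9 under lithium, and 1 moved by more than the spread between libraries (Sycp2 under vehicle, 1.71 within set 2). This count is not a test of those differences, which chose the genes. Most refits left out 1 library. Fits with no filter, with only the groups compared and, under fluoxetine and lithium, within 1 set return the same difference by construction. Of the 54 other germ line genes, 14 passed under vehicle, 4 with only the groups compared and 0 within set 2. Calls over all 17922 genes fell as well. They were 1387 higher and 1293 lower, 508 and 350 with only the groups compared, and 83 and 13 within set 2. Leaving out 1 library gave 9 to 17 of the 54, with 9 without HT vehicle male replicate 7 or WT vehicle female replicate 1. Under fluoxetine 1 of the 54 passed, 2 within 1 set and 2 with marker covariates (1 to 2 with a library left out, 2 without HT fluoxetine female replicate 2 or WT fluoxetine male replicate 5). Calls over all genes were 238 higher and 117 lower, 319 and 191 within 1 set, and 468 and 379 with covariates. Under lithium 1 of the 54 passed, and 2 with only the groups compared (1 to 1 with a library left out). Over all genes 266 were called higher and 184 lower, and 308 and 347 with only the groups compared. Of the 14 vehicle calls, the numbers kept in 31 refits without 1 library were lowest for Ccdc36 (12), Syce1 (14), Zcwpw1 (16), Tdrd3 (21) and Mei4 (24). For fluoxetine in WT 0 of the 9 genes passed, 2 with the replicate block (Stag3 and Mei1), 1 with covariates (Mei1), and 0 to 1 with a library left out (Mei1 passed without WT fluoxetine female replicate 4, adjusted p = 0.043, or WT vehicle male replicate 7, 0.049). With covariates that comparison called 1171 of all genes higher and 826 lower. For lithium in WT 4 of the 9 passed, 0 with only the groups compared, 0 within set 2, where Prss50 reversed (-0.0051), and 2 with covariates. Calls over all genes were 3340 higher and 3138 lower, 2317 and 1937 with only the groups compared, 77 and 42 within set 2, and 3142 and 3030 with covariates. Leaving out 1 library gave 1 to 4 of the 9, with 1 without WT lithium female replicate 3, male replicate 1 or male replicate 2 or WT vehicle male replicate 3, and 2 without WT lithium female replicate 1 or 5, WT vehicle female replicate 5 or male replicate 1. In edgeR Prss50 missed the threshold there (0.45, adjusted p = 0.13), and with the replicate block Tdrd1 passed (0.56). For the interaction with lithium 0 of the 9 passed, and 1 with covariates (Stag3, 0.54, adjusted p = 0.030). Calls over all genes were 206 higher and 296 lower, and 1062 and 1188 with covariates. For sex 1 of the 9 passed, and 0 to 1 with a library left out, 0 without WT lithium male replicate 1 or 2. The main fit did not pair samples by replicate number. Over 32 pairs of HT and WT libraries with the same number the median correlation of deviations was 0.05, against -0.02 for other numbers. The lowest was -0.24, and 12 of 32 were over 0.1. With the replicate block, lithium in HT called 2157 of all genes higher and 1589 lower, against 185 and 88 without it. For fluoxetine in WT it called 2087 and 1916, against 563 and 411. What the numbers stand for was not tested. The replicate block changed no other call on the 9 genes. Causes were not tested. No set holds both sides of the comparisons of fluoxetine with vehicle in WT and of its interaction, so these have no value within a set, and the sex comparisons used all groups already. Depth limits Sycp3, Prss50 and Tdrd9 most, with as few as 0 to 2 reads in a WT library.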
